A study of Mus musculus with 4 samples.

Results

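The P2 receptors, the cell surface receptors for extracellular nucleotides, were followed in the mouse inferior vena cava after ligation, with and without the ectonucleotidase CD39. Members were the 9 genes P2rx1, P2rx4, P2rx7, P2ry1, P2ry2, P2ry6, P2ry12, P2ry13 and P2ry14, taken by name from 18820 genes that had a probe set annotated with exactly 1 symbol. Each member had a single such probe set, so no choice between probe sets was needed. All 9 were among the 14115 genes kept for the comparisons by their mean log2 value. The 4 groups were Cd39-null mice with the vein ligated for 48 h, Cd39-null mice with sham surgery, wild-type mice with the vein ligated for 48 h, and wild-type mice with sham surgery. All mice were on a C57BL/6J background after 8 or more generations of backcrossing and were 8 to 10 weeks old. Each group was represented by 1 array carrying the pooled RNA of 4 mice. Differences between arrays therefore have no replicate behind them and carry no p-value. The sources used here do not give the sex of a pool, whether its ligations were complete, or whether thrombus was part of the RNA piece.

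Nucleotides leave stressed or lysed cells and activated platelets, and act on neighbouring cells before ectonucleotidases such as CD39 degrade them. P2X receptors are cation channels opened by ATP. P2Y receptors are G protein-coupled: the P2ry1 group signals through Gq to phospholipase C, and the P2ry12 group through Gi. In blood and vein wall these receptors are best known for platelet aggregation by ADP, for macrophage inflammasome activation by ATP, and for leukocyte recruitment by uridine nucleotides.

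The values were log2 expression values per probe set, and values of different receptors are not set against each other because probes differ in their response. As a stand-in for background, the 95th percentile of 1006 olfactory receptor probe sets was 2.68 log2 on the array labelled ligated Cd39-null, 2.97 in Cd39-null, sham, 2.66 in wild type, ligated, and 2.94 in wild type, sham. All 9 receptors lay above it on all arrays except P2ry2 in Cd39-null, sham. All 15 endothelial markers lay above it on every array, and all 11 smooth muscle markers did except Myocd and Itga8 on the array labelled ligated Cd39-null. The targeted gene Entpd1, which encodes CD39, had log2 values of 6.14 on the array labelled ligated Cd39-null, 4.16 in Cd39-null, sham, 6.17 in wild type, ligated, and 7.11 in wild type, sham. Its level on the ligated Cd39-null array thus goes against the genotype label, and every direction drawn from that array rests on its label. It is not known here whether this probe set covers the deleted part of the gene.

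**Figure D1:**
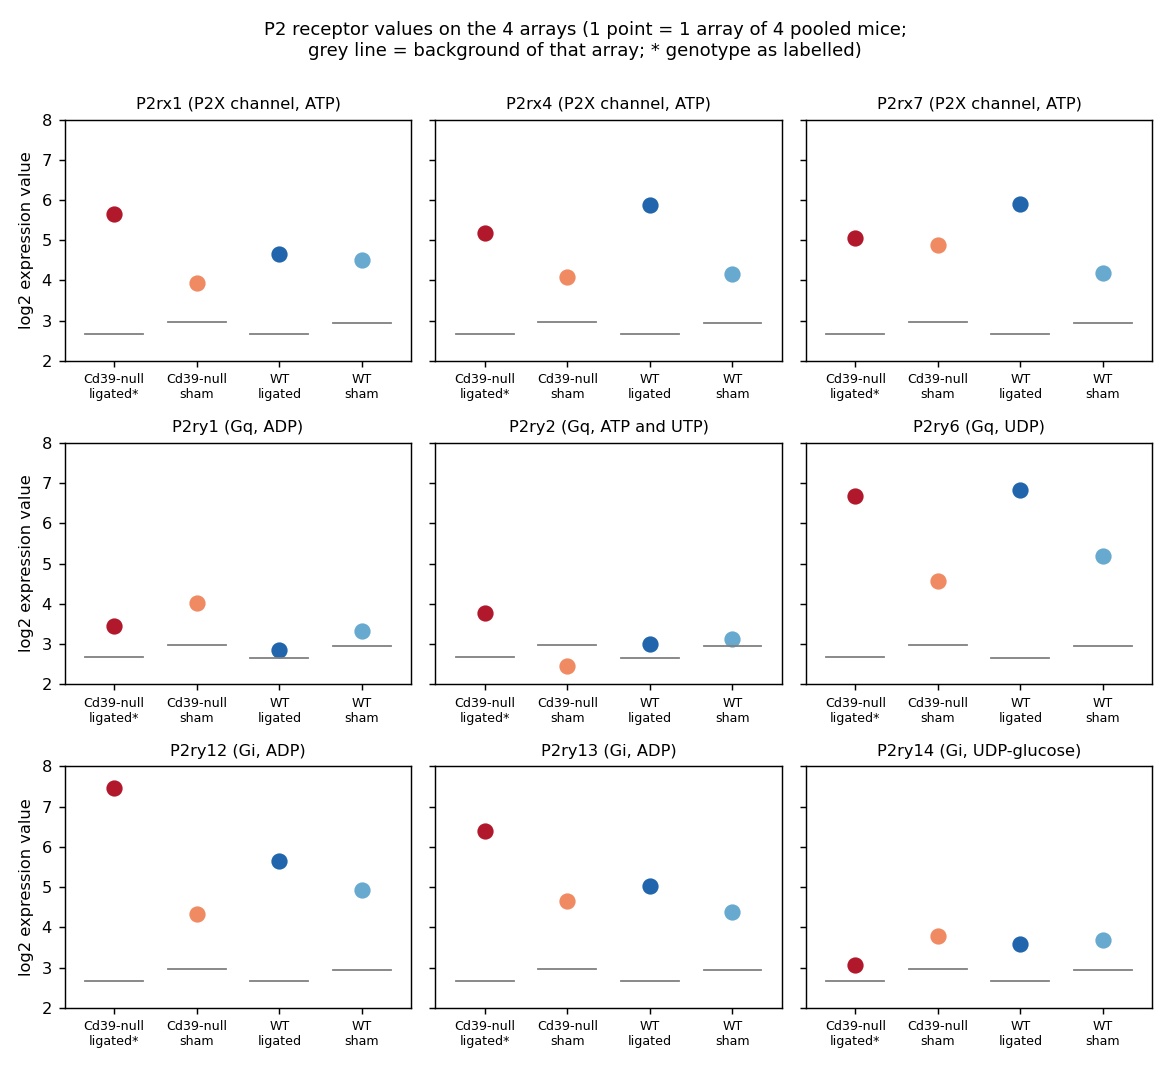
Log2 expression values (y axis) of the 9 receptors on the 4 arrays (x axis); each point is 1 array of RNA pooled from 4 mice, each grey line is the 95th percentile of olfactory receptor probe sets on that array, and the asterisk marks the array whose Entpd1 level goes against its label. P2rx4 and P2ry6 were high on both ligated arrays, P2rx1, P2ry12 and P2ry13 were highest on the array labelled ligated Cd39-null, and P2rx7 was highest in wild type, ligated.

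Ligation was compared with sham surgery within each genotype. In Cd39-null veins, 6 of the 9 receptors were at least 2-fold higher on the ligated array than on the sham array, namely P2rx1, P2rx4, P2ry2, P2ry6, P2ry12 and P2ry13, against 10.9% of all genes kept. None of the 9 was at least 2-fold lower, against 5.8% of all genes. The median log2 difference of the receptors was 1.32 in this comparison, and that of all genes was 0.03. In wild-type veins, 3 of the 9 were at least 2-fold higher after ligation, namely P2rx4, P2rx7 and P2ry6, against 6.6% of all genes. None was at least 2-fold lower there, against 3.63%. The receptors' median was 0.66, against -0.01 for all genes. Of all genes called in Cd39-null veins, 65.3% were higher as deposited, 51.4% after quantile normalisation of the arrays and 53.9% after cyclic loess. After either renormalisation P2rx4 lay under 2-fold in Cd39-null veins (0.86 and 0.87 log2), and the other 5 receptors stayed called. With values raised to each array's background, an alternative chosen after seeing the data, P2ry2 was no longer called and 5 receptors were, against 10.4% of all genes.

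P2rx4 and P2ry6 were the members at least 2-fold higher in both genotypes, against 3.63% of all genes that were higher in both. Of either size, ligation differences were above 0 in both genotypes for 6 of 9 receptors (34.7% of all genes), below 0 in both for P2ry1 and P2ry14 (33.6%) and of opposite sign for P2ry2 (31.5%). The 4 arrays were also fitted together with limma, with 1 term for genotype and 1 for ligation. At an adjusted p of 0.05 for ligation this fit called 0 of 9 receptors and 0% of 14115 genes. At an unadjusted p under 0.05 there were 4 receptors (P2rx4, P2ry6, P2ry12 and P2ry13), against 21% of all genes. Only 1 degree of freedom is left to estimate error in it, and unequal responses of the genotypes enter as error. Each standard error (SE) given from this fit is moderated. It draws on the spread of all genes kept, with 3.67 prior degrees of freedom, and is not the spread of that receptor alone.

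**Figure D2:**
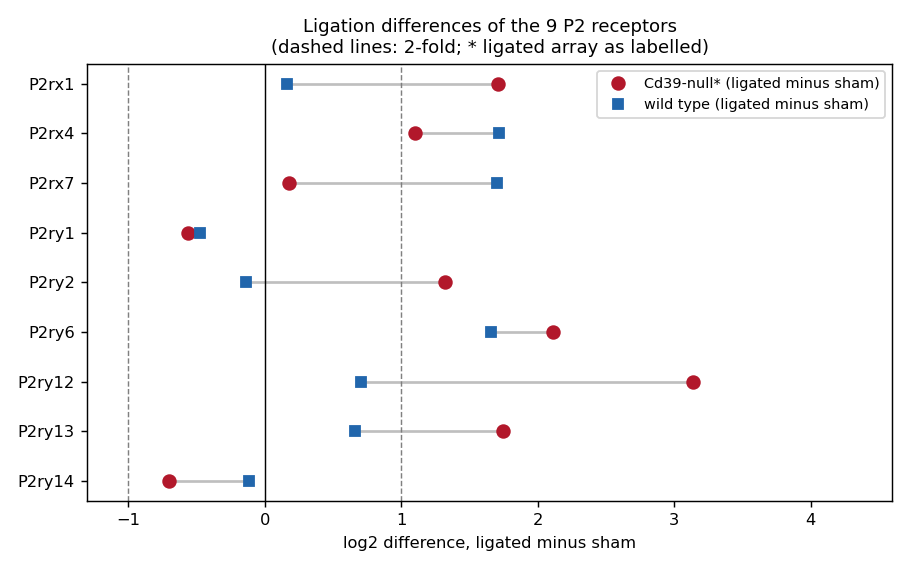
Log2 difference between the ligated and the sham array (x axis) for each receptor (rows), in Cd39-null veins (red circles, ligated array as labelled) and wild-type veins (blue squares); dashed lines mark 2-fold. P2ry12 had the widest gap between the genotypes (3.14 in Cd39-null against 0.71 in wild type), P2rx7 leaned the other way (0.17 against 1.70), and P2ry1 and P2ry14 were below 0 in both.

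Among the P2X channels, P2rx4 is an ATP-gated channel of macrophages and endothelium. It had log2 values of 5.18 on the array labelled ligated Cd39-null, against 4.08 in Cd39-null, sham, and of 5.87 in wild type, ligated, against 4.15 in wild type, sham. Both ligated arrays were above both sham arrays, and the sham arrays were within 0.07 log2 of each other. Over both genotypes its mean ligation difference was 1.41 ± 0.26 (SE), with a limma adjusted p of 0.110.

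P2rx7 opens at high ATP concentrations and triggers the NLRP3 inflammasome in macrophages. Its log2 values were 5.06 on the array labelled ligated Cd39-null, against 4.89 in Cd39-null, sham, and 5.89 in wild type, ligated, against 4.19 in wild type, sham. The ligation difference was thus 1.70 in wild type (3.25-fold) and 0.17 in Cd39-null, where its sign turned after quantile normalisation (-0.12) and cyclic loess (-0.06). P2rx7 ranked 228 of 14115 genes from the highest ligation difference in wild type, and 5695 in Cd39-null. The Cd39-null difference was 1.53 log2 below the wild-type difference, which ranked 264 from the lowest of 14115 genes, and 5.5% of genes were at least 2-fold lower in that contrast. P2rx7 was the receptor called lower in it.

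P2rx4 and P2rx7 are neighbours on chromosome 5, and their promoters are shown to set the channel genes that were both higher in ligated wild-type vein side by side. Each sequence spans 250 bases before and 50 bases after the annotated start, from RefSeq on GRCm38.p6, 5′ to 3′ on the gene's strand. The P2rx4 window is chr5:122707294-122707593 and the P2rx7 window chr5:122643677-122643976, both on the plus strand; P2rx7 has 2 starts in the table and the first listed is given. Capitals mark matches, on either strand, to 4 motifs. GAGGAA is a PU.1-type site of myeloid cells, and AGATAA is the site bound by transcription factors of the GATA family. TGANTCA is the AP-1 site, which reads the same on both strands. ACGTG is a form of the core of hypoxia response elements, and other forms of that core were not searched or marked.
P2rx4: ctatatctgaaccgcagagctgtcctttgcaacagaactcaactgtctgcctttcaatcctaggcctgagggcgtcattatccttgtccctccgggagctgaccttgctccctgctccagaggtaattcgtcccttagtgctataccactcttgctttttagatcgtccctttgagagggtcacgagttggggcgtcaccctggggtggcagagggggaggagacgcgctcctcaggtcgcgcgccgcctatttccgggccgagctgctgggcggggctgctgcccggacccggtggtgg
P2rx7: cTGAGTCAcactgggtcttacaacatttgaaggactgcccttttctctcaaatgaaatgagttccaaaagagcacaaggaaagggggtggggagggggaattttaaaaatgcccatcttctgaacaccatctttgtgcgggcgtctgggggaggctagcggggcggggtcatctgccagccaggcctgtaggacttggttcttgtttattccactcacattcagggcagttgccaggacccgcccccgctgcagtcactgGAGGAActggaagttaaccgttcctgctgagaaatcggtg
The P2rx7 window held TGANTCA 249 bases upstream of the start and GAGGAA from transcribed base 11, with no overlap between them, and the P2rx4 window held none of the 4 motifs. Among the first-listed promoters of 27025 genes, 28.3% held GAGGAA, 11.4% AGATAA, 7.93% TGANTCA and 19.7% ACGTG.

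P2rx1, an ATP-gated channel of platelets, neutrophils and smooth muscle, was higher after ligation in Cd39-null veins and close to its sham value in wild type. Its log2 values were 5.66 on the array labelled ligated Cd39-null, against 3.95 in Cd39-null, sham, and 4.66 in wild type, ligated, against 4.50 in wild type, sham. The ligation differences were 1.71 in Cd39-null and 0.16 in wild type. The array labelled ligated Cd39-null, was the highest and Cd39-null, sham, the lowest of the 4, with the wild-type arrays between them.

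Among the Gq-coupled receptors, P2ry6, the UDP receptor of macrophages and vessel wall, was higher after ligation in both genotypes by similar amounts. It had log2 values of 6.69 on the array labelled ligated Cd39-null, against 4.57 in Cd39-null, sham, and of 6.84 in wild type, ligated, against 5.18 in wild type, sham. The ligated arrays lay above both sham arrays and within 0.15 log2 of each other. The ligation differences were 4.33-fold in Cd39-null and 3.16-fold in wild type. Their mean of 1.89 ± 0.24 (SE) had a limma adjusted p of 0.0952, the smallest of the 9 receptors. No gene had a smaller one in this fit, but other genes, such as Rgs16 and Msr1, shared it. By unadjusted limma p, Rgs16 and Msr1 ranked ahead of P2ry6.

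P2ry2, activated equally by ATP and UTP and present on endothelium and leukocytes, had log2 values of 3.78 on the array labelled ligated Cd39-null, against 2.45 in Cd39-null, sham, and of 3.00 in wild type, ligated, against 3.14 in wild type, sham. The ligation difference was 1.32 in Cd39-null and -0.14 in wild type. The Cd39-null, sham, value lay below the background of its array, so this difference has only a bound, at least 0.81 log2 or 1.75-fold, and P2ry2 is 2-fold higher by its measured values alone; against wild type, sham, the array labelled ligated Cd39-null, was 0.64 higher, under 2-fold.

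P2ry1, the Gq-coupled ADP receptor that starts platelet shape change, was lower after ligation in both genotypes, by less than 2-fold. Its log2 values were 3.46 on the array labelled ligated Cd39-null, against 4.02 in Cd39-null, sham, and 2.84 in wild type, ligated, against 3.32 in wild type, sham. The differences of -0.56 and -0.48 were alike in size. P2ry1 was also higher in Cd39-null than in wild type in both surgeries, by 0.62 in ligated and 0.70 in sham veins. The mean genotype difference of 0.66 ± 0.22 (SE) had an unadjusted limma p of 0.0338 and an adjusted p of 0.691, and 6.94% of all genes had an unadjusted p under 0.05 for genotype. It was the member under that value; 0 of 9 receptors and 0% of all genes passed the adjusted threshold for genotype with limma.

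Among the Gi-coupled receptors, P2ry12, the platelet ADP receptor targeted by clopidogrel and also a marker of microglia, had the highest ligation difference of the 9 in Cd39-null veins. Its log2 values were 7.47 on the array labelled ligated Cd39-null, against 4.33 in Cd39-null, sham, and 5.64 in wild type, ligated, against 4.93 in wild type, sham. The array labelled ligated Cd39-null, was more than 1.8 log2 above each of the others. The ligation difference was 8.81-fold in Cd39-null (rank 72 of 14115 genes) and 1.63-fold in wild type (rank 1715). The difference between the genotypes' ligation differences was 2.43 log2, rank 102 from the highest, and 4 receptors (P2rx1, P2ry2, P2ry12 and P2ry13) were at least 2-fold higher in that contrast, against 6.99% of all genes; P2ry2 was at 0.94 with values raised to background. With wild type, sham, as the reference, P2ry12 was 2.54 log2 higher on the array labelled ligated Cd39-null. The mean ligation difference of 1.92 ± 0.60 (SE) had a limma adjusted p of 0.188.

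P2ry13, an ADP receptor of myeloid and red blood cells, had log2 values of 6.41 on the array labelled ligated Cd39-null, against 4.66 in Cd39-null, sham, and of 5.03 in wild type, ligated, against 4.37 in wild type, sham. Its ligation difference was 1.75 in Cd39-null and 0.66 in wild type, and its difference between genotypes (1.09) was under 2-fold after quantile normalisation (0.90) or cyclic loess (0.94). P2ry14, the receptor for UDP-glucose, went the other way, with 3.07 on the array labelled ligated Cd39-null, against 3.77 in Cd39-null, sham, and 3.58 in wild type, ligated, against 3.70 in wild type, sham. The 3 arrays other than the ligated Cd39-null one were close together for P2ry14, and none of its pairwise differences reached 2-fold.

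P2ry12, P2ry13 and P2ry14 lie close together on chromosome 3, and the promoters of the pair that were both higher in ligated veins are shown. Windows and capitals are as for P2rx4 and P2rx7. The P2ry12 window is chr3:59262936-59263235 and the P2ry13 window chr3:59210833-59211132, both on the minus strand of GRCm38.p6.
P2ry12: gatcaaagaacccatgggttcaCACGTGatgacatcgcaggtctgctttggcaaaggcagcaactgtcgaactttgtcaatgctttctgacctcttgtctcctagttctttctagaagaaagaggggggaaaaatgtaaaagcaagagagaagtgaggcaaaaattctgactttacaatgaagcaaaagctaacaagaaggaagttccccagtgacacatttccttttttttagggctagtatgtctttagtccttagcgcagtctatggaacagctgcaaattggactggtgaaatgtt
P2ry13: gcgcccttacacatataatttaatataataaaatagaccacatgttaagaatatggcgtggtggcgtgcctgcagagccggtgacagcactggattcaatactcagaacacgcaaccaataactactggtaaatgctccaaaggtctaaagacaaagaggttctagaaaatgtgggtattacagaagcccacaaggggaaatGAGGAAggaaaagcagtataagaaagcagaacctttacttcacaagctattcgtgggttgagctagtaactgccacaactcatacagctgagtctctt
The P2ry12 window held ACGTG on both strands, overlapping in CACGTG 228 bases upstream of the start. The P2ry13 window held GAGGAA 48 bases upstream. The 2 windows shared none of the 4 motifs, and of the 8 receptor genes with a promoter in the table, 3 held GAGGAA, 2 AGATAA, 2 TGANTCA and 2 ACGTG in the first-listed one. In the gene table, Med12l, which encodes a Mediator subunit, overlaps P2ry12, P2ry13 and P2ry14. Its log2 values were 4.43 on the array labelled ligated Cd39-null, against 3.08 in Cd39-null, sham, and 3.11 in wild type, ligated, against 3.22 in wild type, sham. Its ligation difference was 1.35 in Cd39-null and -0.11 in wild type, and that of Igsf10, a neighbour of P2ry12, was -1.57 and 0.17.

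The genotype was compared within each surgery. In ligated veins 3 of 9 receptors were at least 2-fold higher on the array labelled Cd39-null than in wild type (P2rx1 by 1.00, P2ry12 by 1.84 and P2ry13 by 1.38 log2), against 3.61% of all genes. None was at least 2-fold lower, against 2.66%. P2rx1 lay just under 2-fold after quantile normalisation (0.93) or cyclic loess (0.99). In sham veins none of the 9 was 2-fold apart in either direction, against 2.95% of all genes higher and 3.54% lower; as deposited 45.5% of all called genes were higher, and 58.4% after cyclic loess. The sham differences ran from -0.68 for P2ry2 to 0.70 for P2ry1. For 5 receptors (P2rx1, P2rx7, P2ry2, P2ry12 and P2ry14) the genotype difference had opposite signs in ligated and sham veins, against 45.6% of all genes.

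**Figure D3:**
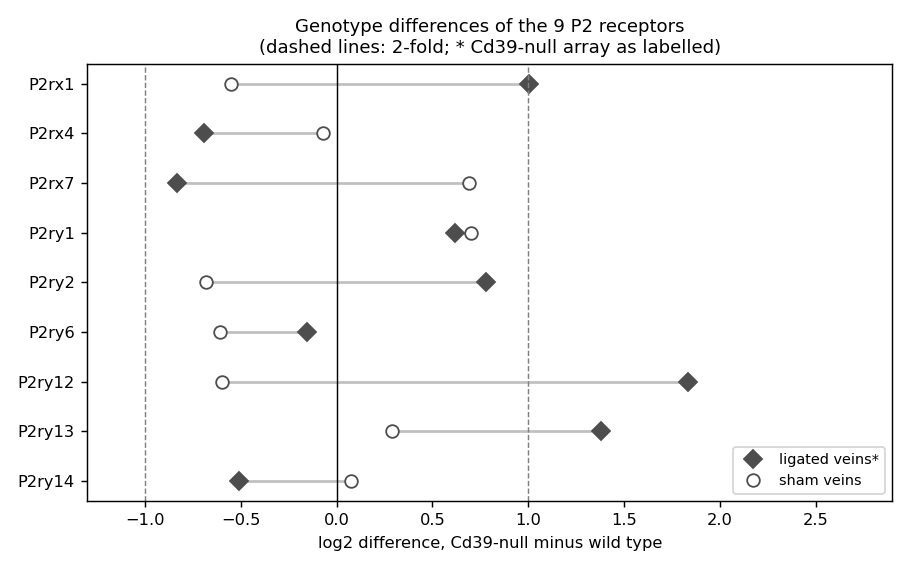
Log2 difference between Cd39-null and wild type (x axis) for each receptor (rows), in ligated veins (filled diamonds, Cd39-null array as labelled) and sham veins (open circles); dashed lines mark 2-fold. P2ry12 and P2ry13 lie beyond 2-fold in ligated veins and P2rx1 at it (1.00), while all 9 sham values lie within 2-fold.

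Marker genes of the cells that could carry these receptors were set beside them. In bulk RNA, more cells of a type and more RNA per cell cannot be told apart. All 10 measured platelet and megakaryocyte markers were at least 2-fold higher in ligated than in sham Cd39-null veins (median 4.08), while 5 of 10 were at least 2-fold lower in ligated wild-type veins (median -0.97). Examples were the platelet tubulin Tubb1 (at least 5.09 in Cd39-null and -1.26 in wild type) and the von Willebrand receptor subunit Gp9 (4.81 and -1.08). The summed signal of the list on the linear scale was 2995 on the array labelled ligated Cd39-null, 270.2 in Cd39-null, sham, 599.0 in wild type, ligated, and 893.3 in wild type, sham. Such a sum weighs the brightest probe sets most, such as Ppbp (8.79 log2 in wild type, sham) and Pf4 (7.96), named for their level. Itga2b, Tubb1 and F2rl2 were at or under background in Cd39-null, sham, and with values raised to background the Cd39-null median was 3.88. Within the list, the chemokine gene Pf4 (2.14 and 0.49), the thrombin receptor F2rl2 (at least 4.03 and 0.27) and the integrin Itga2b (at least 3.68 and -0.17), chosen here after their values were seen, were higher than sham or close to it in wild type. Beside them, P2ry12 differed by 3.14 and 0.71, P2rx1 by 1.71 and 0.16, and P2ry1 by -0.56 and -0.48. The part of platelet RNA in these values was not tested.

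Neutrophil markers had medians of 0.94 in Cd39-null (6 of 14 at least 2-fold higher) and -0.0015 in wild type (2 of 14). Their summed signal was 4430 on the array labelled ligated Cd39-null, 2641 in Cd39-null, sham, 1111 in wild type, ligated, and 1260 in wild type, sham. It too weighs the brightest probe sets most, such as S100a8 (10.22 log2 in Cd39-null, sham) and S100a9 (9.84), named for their level. The granulocyte receptor Csf3r differed by 4.54 and 1.83, and Trem1, an amplifier of myeloid activation at or under background on the other 3 arrays, by at least 3.64 in Cd39-null. The antimicrobial peptide gene Camp, named after its values were seen, was the marker at least 2-fold lower in Cd39-null (at least 1.24 log2 lower), and the calprotectin subunit S100a8, likewise, differed by -0.17 and -0.66. Monocyte and macrophage markers were higher in both genotypes, with 12 of 14 at least 2-fold higher in each and medians of 2.01 in Cd39-null and 2.14 in wild type. Their summed signal was 3382 on the array labelled ligated Cd39-null, 711.8 in Cd39-null, sham, 2574 in wild type, ligated, and 611.5 in wild type, sham, with none at background. P2rx4 and P2ry6 were likewise higher in both. The part of leukocyte RNA in the receptor values was not tested.

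P2rx7, higher after ligation in wild type and close to its sham value in Cd39-null, was accompanied by some macrophage markers and not others. Mrc1 (0.37 in Cd39-null and 2.11 in wild type) and Adgre1 (0.46 and 2.00), markers of differentiated macrophages chosen here after their values were seen, were close to it. The arginase gene Arg1 (4.45 and 2.33) and the scavenger receptor Msr1 (3.78 and 2.70) had higher differences in Cd39-null. Microglia and resident macrophage markers, fixed as a list because P2ry12 marks microglia, had medians of -0.17 in Cd39-null and 0.19 in wild type, with 1 of 9 at least 2-fold higher in Cd39-null and 3 of 9 in wild type. The scavenger receptor Cd163 (0.53 and 1.61) and Folr2 (-0.17 and 1.04), a folate receptor gene named after its values were seen, were 2-fold higher in wild type alone. In that list F13a1 (2.28 and 1.93) was higher in both, the fractalkine receptor Cx3cr1 differed by -0.51 and 0.35, and the phagocytic receptor Timd4 by -1.14 and -0.84. The microglial transcription factor Sall1 lay at or under background on all arrays except Cd39-null, sham.

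**Figure D4:**
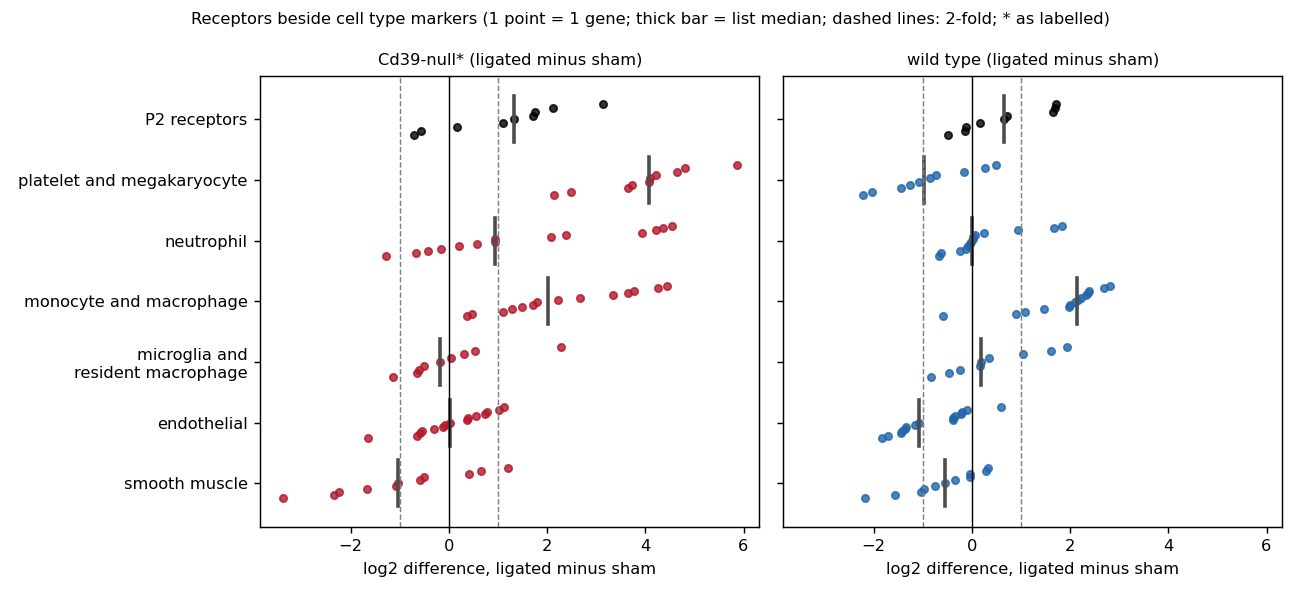
Log2 difference between the ligated and the sham array (x axis) for the 9 receptors (black) and for marker genes of 6 cell types, in Cd39-null veins (left, ligated array as labelled) and wild-type veins (right); each point is 1 gene, the thick bar is the median of its list and dashed lines mark 2-fold. Platelet markers have a median of 4.08 in Cd39-null and -0.97 in wild type, and macrophage markers are higher in both (2.01 and 2.14).

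Vessel wall markers were set beside the receptors as well. Endothelial markers had medians of 0.02 in Cd39-null and -1.07 in wild type, with 8 of 15 at least 2-fold lower in wild type, such as the angiopoietin receptor Tek (-0.13 in Cd39-null and -1.70 in wild type). The endothelial summed signal was 1396 on the array labelled ligated Cd39-null, 1206 in Cd39-null, sham, 1123 in wild type, ligated, and 2169 in wild type, sham. Smooth muscle markers had medians of -1.04 and -0.55, with 6 and 3 of 11 at least 2-fold lower, such as the smooth muscle myosin Myh11 (-2.24 and -1.57). Their summed signal was 663.8 on the array labelled ligated Cd39-null, 1255 in Cd39-null, sham, 1933 in wild type, ligated, and 2829 in wild type, sham. The Cd39-null, sham, array, on which every Cd39-null ligation difference also rests, differed from wild type, sham, in several marker lists. Adipocyte (median 1.24, Ucp1 5.57), B cell (1.97, Cd22 1.97), neutrophil (0.72) and T and NK cell markers (0.72) were higher. Smooth muscle (-1.39), endothelial (-0.93) and platelet markers (-0.85) were lower. With values raised to background, the medians were 1.65 for B cell, 0.62 for neutrophil and 0.70 for T and NK cell markers. Against wild type, sham, in place of Cd39-null, sham, 5 receptors were at least 2-fold higher on the array labelled ligated Cd39-null, against 9.52% of all genes. They were P2rx1, P2rx4, P2ry6, P2ry12 and P2ry13.

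For each receptor the genes with the closest pattern over the 4 arrays were found by the root mean square distance between mean-centred log2 values. The 3 closest to P2ry12 were Smim3 (0.038 log2), the dipeptidase Dpep2 (0.046) and Inhba, which encodes an activin subunit (0.075). Those closest to P2ry6 were the cell cycle kinase Cdk4 (0.047), the blood cell transcription factor Runx1 (0.076) and the collagen-modifying enzyme Plod1 (0.096). P2rx4 lay closest to the checkpoint kinase Chek2 (0.044; under background on both sham arrays), the extracellular glutathione peroxidase Gpx3 (0.060) and the kinetochore protein Cenpf (0.073). P2rx7 lay closest to Yif1b (0.068), the linker histone H1f5 (0.069) and the myosin Myo5a (0.071). The closest to P2rx1 was Rhbdf2, to P2ry2 Cert1, to P2ry13 Galnt6, to P2ry1 Zfp971 and to P2ry14 Hexdc, at 0.016 to 0.060 log2. Galnt6, like Chek2, was under background on both sham arrays. Likeness over 4 arrays was not tested. Among the receptors themselves, P2rx1 and P2ry2 were closest (0.194), and P2ry12 and P2ry14 were farthest apart (1.45).

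The remaining P2 receptors gave little signal. P2rx2, P2rx3, P2rx5 and P2ry4 were at or under background on all 4 arrays and were not among the genes kept. P2ry10, a lysophospholipid receptor of lymphocytes, was above background in Cd39-null, sham, alone (3.08 log2, against 1.70 in wild type, sham). P2rx6 and P2ry10b were kept and differed by at most 0.30 in any pair of arrays compared. P2rx6 lay at or under background on all arrays except the one labelled ligated Cd39-null, so its small differences say little. The 4 adenosine receptor genes were not analysed here.

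Genes that act downstream of the receptors were described from lists by function. Of 11 genes around P2X7 and the inflammasome, 5 were at least 2-fold higher after ligation in Cd39-null and 4 in wild type. The shares of all genes were 10.9% and 6.6%. The genes called included the cytokine Il1b (3.34 in Cd39-null and 1.42 in wild type) and the membrane rupture gene Ninj1 (2.61 and 1.38). They also included the pyrin-binding adaptor Pstpip1 (2.53 and 1.21) and the pore-forming Gsdmd (1.83 and 1.39). The Cd39-null count held Nlrp3 too, whose Cd39-null, sham, value lay under background (at least 0.98 log2 higher). With values raised to background the Cd39-null count was 4. The protease gene Casp1, named after its values were seen, was the member at least 2-fold lower in Cd39-null (-1.43, against 0.03 in wild type). Of 14 Gi, Rap1 and PI3K genes, 8 were at least 2-fold higher in Cd39-null and 2 in wild type, with medians of 1.02 and 0.19. The Rap1 activator Rasgrp2 differed by 1.31 in Cd39-null and -0.74 in wild type. Akt1 differed by 1.63 and 0.44, and the PI3K regulatory subunit Pik3r5 by 1.60 and 1.87. The inhibitory G protein subunit Gnai1 was lower in both (-1.39 and -0.96).

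**Figure D5:**
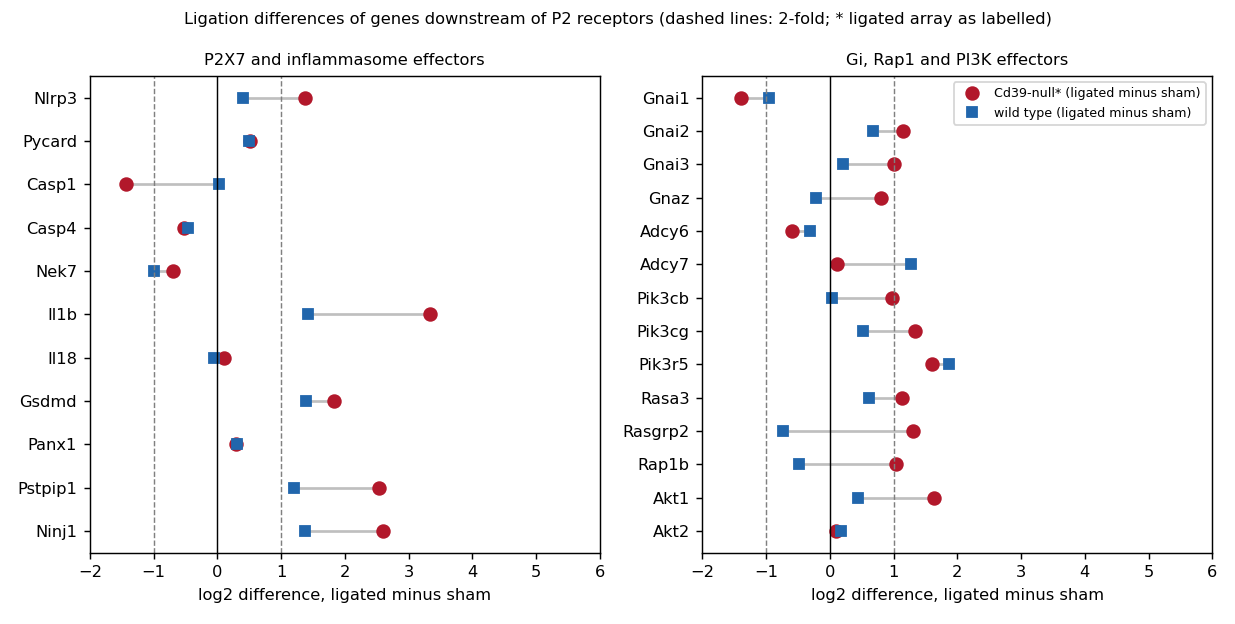
Log2 difference between the ligated and the sham array (x axis) for P2X7 and inflammasome genes (left) and for Gi, Rap1 and PI3K genes (right). Cd39-null veins are red circles (ligated array as labelled) and wild-type veins blue squares. Dashed lines mark 2-fold. Il1b, Ninj1, Pstpip1 and Gsdmd lie beyond 2-fold in both genotypes, while Rasgrp2 is higher in Cd39-null (1.31) and lower in wild type (-0.74).

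Among enzymes that set the ligand supply, Nt5e, which encodes the AMP-degrading CD73, had log2 values of 6.77 on the array labelled ligated Cd39-null, against 4.08 in Cd39-null, sham, and of 3.81 in wild type, ligated, against 3.54 in wild type, sham. Entpd3, a relative of CD39, was 1.09 higher after ligation in Cd39-null and at or under background in wild type, ligated, at least 0.36 below wild type, sham. The ATP release channel gene Gja1 differed by 1.19 in Cd39-null and -0.06 in wild type. It was the gene at least 2-fold higher of 8 release channel genes kept in Cd39-null, with none in wild type. The shares of all genes were 10.9% and 6.6%. The medians of the release list were 0.18 in Cd39-null and 0.04 in wild type.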

How the data were processed

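Expression was deposited on the log2 scale, per probe set. The submitters' processing notes name oligo and RMA as what the authors used, with no version. RMA normalises arrays to a common distribution, so a global shift in RNA content would be hidden. The deposited values per probe set still differed in distribution between ligated and sham arrays. The background stand-in was 2.68 and 2.66 on the ligated arrays and 2.97 and 2.94 on the sham arrays (Cd39-null, then wild type). Values were used as deposited. A single symbol was annotated for 21218 of 35556 probe sets, more than 1 for 1881 and none for 12457; the brightest probe set was taken per gene, and genes with a mean log2 at or above the 25th percentile (2.29) were kept. Precision is limited by there being 4 arrays.

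Pairs of arrays were compared by log2 differences, called at 2-fold, with no test. The additive model of genotype and ligation was fitted with limma 3.58.1 (lmFit, eBayes) in R 4.3.3 with Benjamini-Hochberg adjustment over all genes kept, and was tested on simulated data. The 9 receptors and 22 gene lists were chosen with earlier results of these data known. Names were drawn from the receptors and genes overlapping them or within 3 genes of them in the RefSeq table of GRCm38.p6. They were also drawn from the 3 genes of most similar pattern per receptor. Up to 4 genes per list with the largest difference in any of the 4 pairs of arrays were named too. Not every measured neighbour is described. Left out were, for example, the ligation differences of Rap2b beside P2ry1 (1.20 in Cd39-null and 0.99 in wild type). Those of Camkk2, which overlaps P2rx4, were also left out (0.63 and 0.44). For some receptors only the closest gene in pattern is given. Markers at or under background are named as such, and other exceptions are stated. Alternatives were other filters, quantile and cyclic loess scaling, averaged probe sets, a 1.5-fold call, another reference array, values raised to background (added after seeing the data), and other limma settings. Promoters came from the RefSeq table of GRCm38.p6; 8 of 9 receptors matched.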

Additional observations from a re-analysis of the deposited data

Results flagged for a closer look

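The genotype difference had opposite signs in ligated and sham veins for 5 of 9 receptors, and the ligation difference had opposite signs in the genotypes for 1; with 1 array per group, none of these differences was tested. For genotype, P2ry12 was 1.84 log2 higher in Cd39-null among ligated veins and 0.60 lower (-0.60) among sham veins, a difference of 2.43. P2rx1 was at 1.00 and -0.55, 1.55 apart. P2rx7 ran the other way, at -0.83 in ligated and 0.69 in sham veins, a difference of -1.53. P2ry14 was at -0.51 and 0.08, a difference of -0.59. P2ry2 was at 0.78 and -0.68, 1.46 apart, and its ligation difference was 1.32 in Cd39-null and -0.14 in wild type, again 1.46 apart; its Cd39-null, sham, value lay under background. Signs were opposite for 45.6% of all genes between surgeries and for 31.5% between genotypes.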

How the results depend on the processing

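No paired analysis was possible because with 1 array per group there are no replicates to pair by number; the limma fit compares ligation with genotype as a term. Of the values of single receptors under the alternatives, 389 stayed on their side of 2-fold, or of the adjusted p of 0.05 in the limma fits. Many of the 389 were fixed in advance and do not measure robustness. Filters and averaged probe sets cannot change a receptor's difference between arrays, since each receptor had a single probe set. The other 9 went under 2-fold: after either renormalisation, P2rx4 in Cd39-null ligation, P2rx1 between ligated genotypes and P2ry13 in the difference of ligation differences, P2ry2 with wild type, sham, as the reference, and P2ry2 with values raised to background (0.81 for Cd39-null ligation and 0.94 for the difference of ligation differences). Called at 1.5-fold in place of 2-fold, by construction a wider call, 5 receptors were higher after ligation in wild type (15.8% of all genes), 1 was lower after ligation in Cd39-null (14.5%), 2 were higher and 3 lower in Cd39-null sham veins (8.71% and 13.9%), 5 were higher and 2 lower in ligated Cd39-null veins (8.4% and 9.44%), and 3 were lower in the difference of ligation differences (13.9%). For genotype, limma gave 2 receptors at an unadjusted p under 0.05 after quantile normalisation and 2 after cyclic loess (P2ry1 and P2ry13 in both, against 7.0% and 6.83% of all genes), and P2ry1 alone as deposited (6.94%); the cause was not tested. No receptor passed limma's adjusted p in any of 8 settings, where P2ry6 ran from 0.0759 to 0.213 and P2rx4 from 0.0887 to 0.223 for ligation. P2ry2 was not kept with the filter at the median. P2rx4 in sham veins changed sign between genotypes within -0.07 to 0.04 log2. P2ry1, P2ry2 and P2ry14 lie close to background, which limits the size of their differences.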

Other observations

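Of 8 arrestin, receptor kinase and RGS genes kept, 5 were at least 2-fold higher after ligation in Cd39-null and 2 in wild type. Of all genes kept, 10.9% and 6.6% were. Rgs18, a regulator of G protein signalling of platelets and myeloid cells, had log2 values of 7.56 on the array labelled ligated Cd39-null, against 4.41 in Cd39-null, sham, and of 4.69 in wild type, ligated, against 5.43 in wild type, sham. Rgs1 was at least 2.74 log2 higher in Cd39-null and at or under background on both wild-type arrays. Rgs16 differed by 2.56 in Cd39-null and 2.40 in wild type, and the arrestin Arrb2 by 1.87 and 1.20.

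Of 12 Gq and phospholipase C genes, 2 were at least 2-fold higher after ligation in Cd39-null and 1 in wild type. Of all genes kept, 10.9% and 6.6% were. The kinase Prkcd was higher in both (1.77 in Cd39-null and 1.23 in wild type), the leukocyte phospholipase Plcb2 was higher by 1.09 and 0.70, and Plcb4 was lower in both (-1.62 and -1.43). Beside P2rx1, the calcium pump gene Atp2a3 differed by 2.03 in Cd39-null and -1.04 in wild type, and beside P2ry2 and P2ry6, Fchsd2 differed by -1.52 and 0.28.

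The remaining cell type lists had ligation medians, in Cd39-null and in wild type, of -0.95 and -0.44 for 8 T and NK cell markers, -0.38 and 0.25 for 7 dendritic cell markers, -0.51 and 0.41 for 6 mast cell markers, -0.64 and -0.98 for 6 Schwann cell markers, and 0.61 and -0.42 for 3 erythroid markers. Several dendritic and mast cell markers were at or under background. With values raised to background, the medians were -0.29 and 0.09 for dendritic cell markers and -0.29 and -0.28 for mast cell markers. As measured, B cell markers had medians of -2.22 and -0.37 and adipocyte markers of -1.63 and -0.05. Raised to background, the B cell medians were -1.91 and -0.33.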
